A study of Homo sapiens with 92 samples.

Results

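The libraries described here are the DMSO arm of the release series, 12 of the 92 libraries of the study, chosen by their titles: 3 each at label times of 30, 60, 90 and 120 min. The central comparison is 120 min against 30 min, with 60 and 90 min between them. The assay was SLAM-seq, which reads out newly made RNA. Cells took up 4-thiouridine (4sU, at 100 µM for the last 15 min), the labelled uridines were alkylated, and reads that carry them show T-to-C conversions. A read with such a conversion is called a converted read below.

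The cells were of a single clone named NIPBL-D7, derived from hTERT RPE-1, a telomerase-immortalised human retinal pigment epithelial line. In this clone NIPBL, the loader of the cohesin ring, carries mGreenLantern-P2A-FKBP12(F36V) at its gene, so that the compound dTAGV-1 can destroy it. The cells of the 12 libraries described here received only DMSO, the vehicle, and no dTAGV-1. The level of the tagged protein is not measured in these data. Per the labels the cells were synchronised with thymidine (2 mM, given in 2 rounds) and nocodazole. The protocol that the libraries share gives nocodazole at 20 ng/ml for 120 min, a shake-off of mitotic cells and a release, and the treatment label of the 12 libraries does not repeat these times. For comparison the study holds 12 release-series libraries with dTAGV-1 at the same label times, 18 mitosis-series DMSO libraries from 0 to 120 min, and 6 mitosis-series DMSO libraries at 4, 6 and 8 h. In the mitosis series DMSO or dTAGV-1 was present in the nocodazole block as well. The labels do not say whether replicates are separate cultures, so p-values measure the spread between these libraries, which may be technical.

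As background, transcription is largely shut down in mitosis and returns as cells enter G1. Genes of mitosis and cytokinesis, made in G2 and M, are then switched off, largely through repressor complexes that bind their promoters at a cell cycle homology region. Genes of cell identity, matrix and signalling come back in waves, and RNA made earlier decays at its own pace.

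Before any change is given, the label times have to be set against the profiles, because the data went against the plain reading of the labels. Spearman's rho across 10396 genes was computed between mean converted-read profiles of release and mitosis DMSO groups. For release 30 min it was 0.977 with mitosis 4 h, against 0.841 with mitosis 30 min and 0.878 with mitosis 120 min. For release 120 min it was 0.980 with mitosis 6 h and 0.976 with mitosis 4 h, against 0.842 with mitosis 120 min. Each of the 12 libraries taken alone was nearest to 4 h or 6 h, and none to a group of 0 to 120 min.

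Some single genes showed the same, and others did not. CDK1, the kinase of mitotic entry, had 3.56 to 8.28 CPM at release 30 min, against 256 to 310 CPM at mitosis 30 min and 9.35 to 17.7 CPM at mitosis 4 h. FOS, an immediate early transcription factor, had 0.690 to 4.57 CPM at release 30 min, against 79.4 to 608 CPM at mitosis 30 min and 2.57 to 4.07 CPM at mitosis 4 h. The cytokine gene IL6 had 59.5 to 68.3 CPM at release 120 min. It had 36.9 to 84.2 CPM at mitosis 120 min, 33.9 to 45.8 at 4 h and 30.3 to 43.1 at 6 h. DDIT4 had 8.97 to 47.3 CPM at release 30 min, against 1.56 to 2.84 CPM at mitosis 30 min and 64.7 to 101 CPM at mitosis 4 h. CPM is the count scaled to the total of converted reads of the library, here without further scaling. The hours that these cells had spent out of mitosis are not given by the label of this series, which names only the time in DMSO. The times below are therefore the label times, and nothing is said about the time since mitosis.

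**Figure D1:**
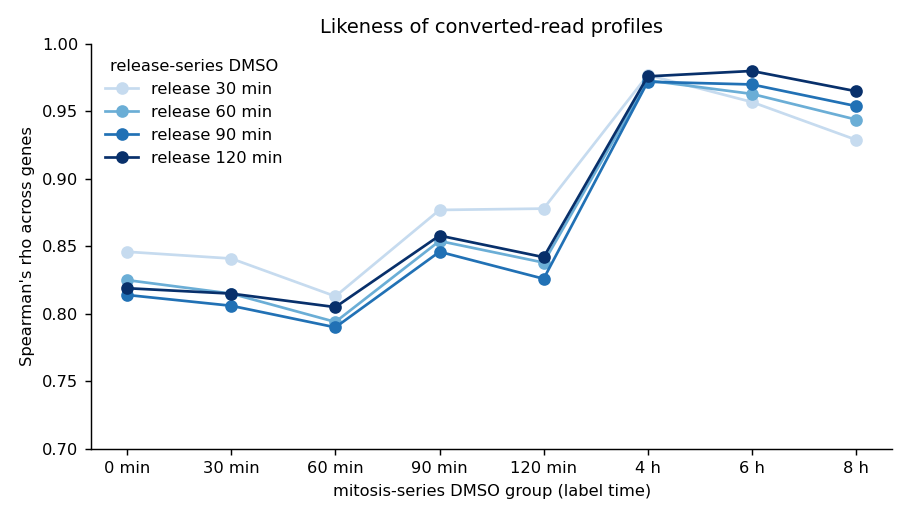
Spearman's rho across genes between the mean converted-read profile of each release-series DMSO group (4 lines) and each mitosis-series DMSO group (x axis, label time). All 4 lines lie at 0.878 or lower against 0 to 120 min and at 0.929 or higher against 4 to 8 h.

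Total reads ran from 25.8 to 60.4 M (mega-reads) per library and converted reads from 1.26 to 4.84 M. Depth was not equal between the compared times. Converted reads were 1.45, 2.90 and 1.97 M at 30 min, and 2.80, 3.99 and 4.84 M at 120 min. The part of depth in the changes below was not tested. Each of 14 RPE-1 markers had a converted read in at least 1 library. The highest was FN1 (3956 to 5306 CPM), TERT had a median of 2.98 CPM, and COL5A1 had 0 to 3.45 CPM and was thus at 0 in some library. Of markers of differentiated pigment epithelium, MITF (210 to 295 CPM), OTX2 (11.3 to 27.5 CPM), LRAT (8.92 to 24.6 CPM) and MERTK (1.59 to 6.69 CPM) were seen in every library. The other 8 of 12 were at or near 0: BEST1 reached at most 2.38 CPM and DCT 1.02 CPM, RPE65, RLBP1, TYR, PMEL and TTR had medians of 0, and TYRP1 was at 0 throughout. Markers of other types summed to 2.48 to 20.0 CPM for cardiomyocytes (8 of 11 seen; TNNT2, MYL7 and NPPB at 0), 0 to 1.38 for pluripotent cells (5 of 8), 4.83 to 14.3 for blood (6 of 9; CD14, CD3E and HBB at 0) and 8.65 to 28.6 for endothelium (8 of 8). The neuron list summed to 1128 to 2029 CPM, nearly all of it from SYT1 and MAP2, while NEFM was at 0.

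The share of all reads that were converted was larger at 120 min than at 30 min. The 30 min libraries had 4.11%, 5.09% and 5.09%, those of 60 min 5.80%, 6.85% and 4.88%, those of 90 min 6.73%, 7.39% and 5.59%, and those of 120 min 6.61%, 6.61% and 8.11%. The means were 7.11% ± 0.865 at 120 min and 4.76% ± 0.565 at 30 min (SD, n = 3 each), a ratio of 1.49. The 3 libraries of 120 min all lay above the 3 of 30 min, which in a two-sided exact permutation test gives p = 0.1, the smallest value that 3 against 3 allows (adjusted p = 0.4 over 4 comparisons). The neighbouring times overlapped. No library without 4sU is used here, so the share that sequencing errors and variants contribute is unknown.

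Of 12831 genes tested for 120 against 30 min, 146 were higher (1.14%) and 113 lower (0.881%), 2.02% in either direction, at an adjusted p under 0.05 by edgeR's quasi-likelihood test. The lower genes included SLIT2, CXCL8 and genes of chromosome segregation, and the higher ones included RBMS3, L3MBTL3, MAP3K1 and BCL11A. These changes are relative to the other genes of a library, because counts were scaled by TMM. With totals of all reads as library sizes, the median change of all genes was 0.56 in place of -0.03 on the log2 scale, and 4341 genes were called higher (34.5%) and 45 lower (0.358%). The list medians below shift up by a similar amount under that scaling, so a value is to be read against the other genes. The number of calls also depended on single libraries: it was 36 without replicate 3 of 120 min, 75 without replicate 2 of 30 min, 86 without replicate 1 of 120 min, 136 without replicate 3 of 30 min, 157 without replicate 2 of 120 min and 396 without replicate 1 of 30 min. Of the 37 called genes that the naming rule picked, all 37 kept their direction in those 6 fits, and 10 remained called in all 6: SLIT2, CXCL8, RRM2, MAP2, RBMS3, L3MBTL3, MAP3K1, LINS1, NAPB and BCL11A. Among the 37 was CDK15, a cyclin-dependent kinase family member (-1.70), which remained called in 2 of these fits. Other called genes given below were not followed singly through the 6 fits. The rule asked for libraries of 120 and 30 min that do not overlap for the largest rises and falls, and 3017 of all tested genes (23.5%) had such libraries, so a lack of overlap is no result for them. The levels below are CPM of converted reads after TMM scaling.

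SLIT2, a secreted guidance cue that binds ROBO receptors (ENSG00000145147.19, chr4:20253260-20620561, hg38), had the largest fall among named protein-coding genes. The 30 min libraries held 327, 380 and 252 CPM of it, the 60 min libraries 167, 183 and 140, the 90 min libraries 103, 139 and 105, and the 120 min libraries 56.0, 87.4 and 67.1. The 120 and 30 min libraries were far apart, and the means went down at each of the 3 steps. The log2 change from 30 to 120 min was -2.19 ± 0.19 (SE, adjusted p = 0.00011). All reads of SLIT2 changed by -1.48 (adjusted p = 0.012), and the share of its reads that were converted averaged 5.84% at 120 min and 6.38% at 30 min.

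CXCL8, the neutrophil chemokine interleukin-8 (ENSG00000169429.10, chr4:73740506-73743716), fell to 10.1, 7.01 and 7.12 CPM at 120 min, against 40.5, 38.3 and 26.6 CPM at 30 min. Its log2 change was -2.13 ± 0.24 (adjusted p = 0.00068), and that of its all reads was -1.81 (adjusted p = 0.0033). Of the 17 tested genes of inflammatory ligands and NF-kB feedback, 1 was called higher and 3 lower, beside 1.14% and 0.881% of all tested genes. In this list BIRC3 and IL11 fell too. BIRC3, an inhibitor of apoptosis induced by NF-kB, had 3.85, 4.01 and 3.14 CPM at 120 min, against 12.8, 12.1 and 11.1 CPM at 30 min. IL11, a cytokine of the IL6 family, had 5.49 ± 0.459 CPM at 120 min and 16.2 ± 3.54 CPM at 30 min (SD, n = 3 each), and most of its change lay between 30 and 60 min (log2 -1.53). The call of BIRC3 was lost without replicate 2 of 30 min or replicate 3 of 120 min. That of IL11 was lost without either of these 2 libraries and without replicate 1 or 2 of 120 min.

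IL6 moved the other way. The 30 min libraries held 13.5, 33.8 and 32.7 CPM of this cytokine of fever and the acute phase, the 60 min libraries 38.2 ± 0.871 (mean ± SD), the 90 min libraries 45.2, 42.3 and 48.6, and the 120 min libraries 66.8, 62.3 and 60.4. The 4 groups did not overlap. The log2 change was 1.19 ± 0.22 (adjusted p = 0.013), which missed the threshold without replicate 1 or replicate 3 of 120 min. The remaining 13 tested members of the list were not called in the main fit, among them NFKB2 (-1.05, adjusted p = 0.085) and IL1A (0.26, adjusted p = 0.32). The list's median was -0.19, against -0.03 for all tested genes.

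**Figure D2:**
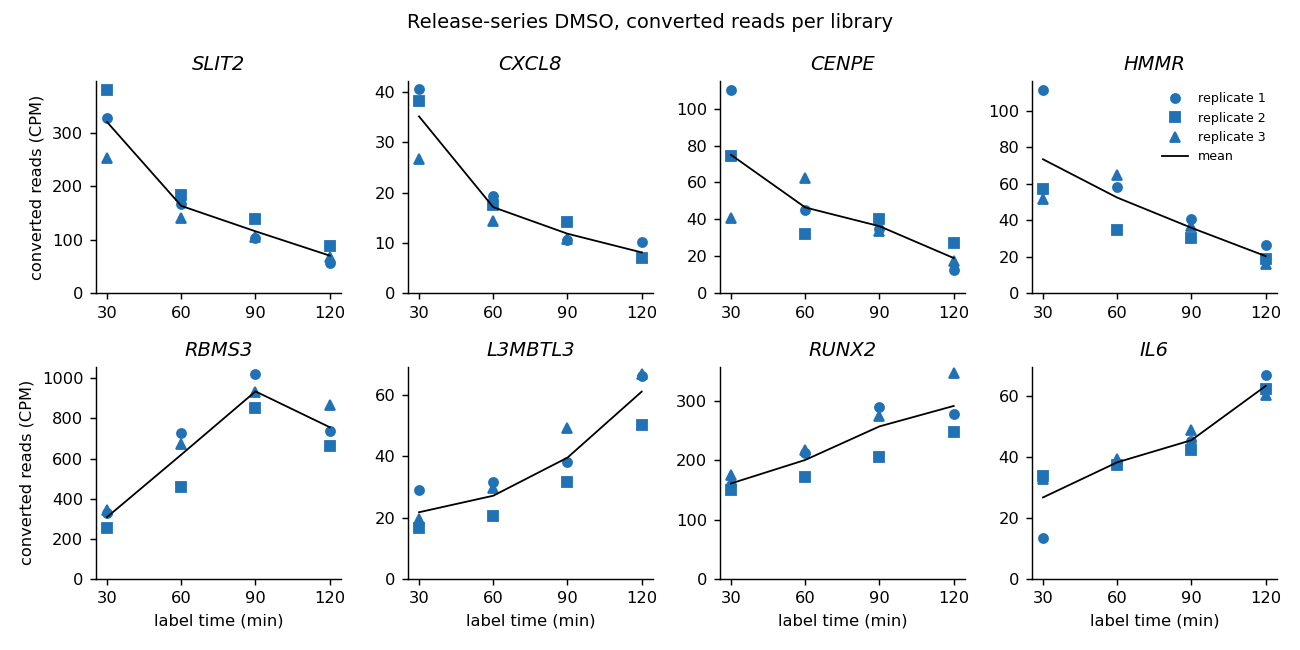
Converted reads in CPM (y axis, from 0, TMM-scaled) of 8 genes against label time in min (x axis) for each library of release-series DMSO, with symbols for replicates and a line for the mean of 3. The upper 4 genes are lower at 120 min, and the lower 4 are higher, with RBMS3 at its highest mean at 90 min.

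Genes of mitosis and cytokinesis were lower at 120 min than at 30 min. Of 37 tested, 18 fell, none rose, and 34 had a negative change, with a median of -1.19 against -0.03 for all tested genes. Of all tested genes, 46.8% had a positive change, 1.14% were called higher and 0.881% lower. With all reads as library sizes the median of the mitotic genes was -0.61, with 17 lower and 1 higher. Their summed level was 2050 to 2974 CPM at 30 min, 1423 to 2071 at 60 min, 1253 to 1446 at 90 min and 926 to 1245 at 120 min, without TMM scaling. The median change was -0.60 for the step from 30 to 60 min, -0.31 from 60 to 90 min and -0.25 from 90 to 120 min. The count of 18 was 1 without replicate 3 of 120 min, 8 without replicate 1 of 120 min, 9 without replicate 2 of 30 min and 14 to 19 without each of the other libraries, while the median stayed between -1.31 and -1.02.

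CENPE, the kinesin that carries chromosomes to the spindle equator, had 12.6, 27.3 and 17.2 CPM at 120 min, against 110, 74.1 and 40.7 CPM at 30 min (log2 -1.94 ± 0.35, adjusted p = 0.014). HMMR, a spindle-binding protein, had 26.2, 18.5 and 16.1 CPM at 120 min, against 112, 56.9 and 51.8 CPM at 30 min (log2 -1.85 ± 0.31, adjusted p = 0.0089). CDC20, the activator of the anaphase-promoting complex, had 9.45, 14.0 and 7.54 CPM at 120 min, against 18.5, 44.1 and 42.2 CPM at 30 min. In each of the 3 the libraries of 30 min spread widely. For CDC20 the change lay in the first step (log2 -1.72), with -0.01 and -0.06 in the later ones.

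The other large falls of the list were those of BUB1 and NEK2, kinases of the spindle checkpoint and of the centrosome, and CENPF, a kinetochore protein. BUB1 had 15.8 ± 6.04 CPM at 120 min and 54.1 ± 24.6 CPM at 30 min, and CENPF had 66.7 ± 14.9 CPM at 120 min and 229 ± 120 CPM at 30 min (SD, n = 3 each). NEK2 had 9.45, 15.3 and 7.33 CPM at 120 min, against 40.5, 38.3 and 26.1 CPM at 30 min. The remaining 12 called members ran from -0.74 for FOXM1, a transcription factor of G2 and M genes, to -1.48 for KIF11, the kinesin that separates spindle poles, and held the cyclins CCNB1 (-1.28) and CCNB2 (-1.23). CASC5 (KNL1 in current usage), a kinetochore scaffold outside the list, had 9.27 ± 1.07 CPM at 120 min and 36.9 ± 20.8 CPM at 30 min. Calls of these 6 list genes and CASC5 were lost without replicate 3 of 120 min. CENPE and CDC20 were also lost without replicate 1 of 120 min or replicate 2 of 30 min, CDC20 without replicate 3 of 30 min too, CENPF without replicate 1 or 2 of 120 min or replicate 2 of 30 min, and CASC5 without replicate 1 or 2 of 120 min. CDK1 and CKS2 had changes of 0.03 and 0.05 and were not called. In a bulk sample, fewer cells in mitosis or G2 and less RNA per cell cannot be told apart.

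The falls of mitotic genes were present in all reads as well. Their median change in all reads was -0.93, with 13 of 39 tested genes lower and none higher, where 0.179% of all genes tested in all reads were lower and 0.0424% higher. Measured against the same gene's total reads, converted reads of the list changed by a median of 0.29, against 0.54 for all genes tested this way, with 10 of 37 called higher and none called lower. Of all genes tested this way 46.5% were called higher and 0.039% lower, so the share of the list called higher was below that of all genes. The converted share of CENPE averaged 2.66% at 120 min and 2.12% at 30 min, and that of HMMR 3.06% at 120 min and 2.85% at 30 min. KIF4B, a near-identical copy of the kinesin KIF4A, was called too (log2 -1.68), but 75.8% of its reads at 120 min and 74.0% at 30 min counted as converted. How reads were assigned between the 2 copies was not tested, so its value is uncertain. UBE2SP2, a pseudogene with 25.2% of reads converted at 120 min and 31.2% at 30 min, had a log2 change of -2.31, and its read assignment was not tested either.

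Promoters across the mitotic list, called or not, often held a short element. Of the 18 called genes, 16 matched RefSeq's promoter table (GRCh38.p14), and 14 of these (87.5%) held TTTGAA or TTTAAA on either strand in the 150 bases before a start. Of all tested members of the list, called or not, 26 of 31 matched genes (83.9%) held it, so it does not set the called members apart. These are the letters of the cell cycle homology region. The share was 15.3% of the 27305 genes in the table and 11.8% of the 8615 tested genes that it holds. A match is a description of letters and no measure of binding. The 150 bases of 4 of these promoters are shown 5′ to 3′, with matches in capitals, because these genes led the fall. They lie at chr4:103198344-103198493 (minus strand) for CENPE, chr5:163460482-163460631 (plus) for HMMR, chr1:43358831-43358980 (plus) for CDC20 and chr1:214603045-214603194 (plus) for CENPF.
CENPE: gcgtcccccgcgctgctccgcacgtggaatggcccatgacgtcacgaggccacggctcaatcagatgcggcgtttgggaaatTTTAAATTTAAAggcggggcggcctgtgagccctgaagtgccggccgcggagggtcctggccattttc
HMMR: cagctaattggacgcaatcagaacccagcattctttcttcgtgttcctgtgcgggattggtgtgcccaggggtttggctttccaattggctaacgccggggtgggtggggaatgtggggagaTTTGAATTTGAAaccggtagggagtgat
CDC20: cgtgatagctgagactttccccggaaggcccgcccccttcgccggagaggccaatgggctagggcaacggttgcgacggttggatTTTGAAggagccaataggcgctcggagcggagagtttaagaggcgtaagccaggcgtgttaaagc
CENPF: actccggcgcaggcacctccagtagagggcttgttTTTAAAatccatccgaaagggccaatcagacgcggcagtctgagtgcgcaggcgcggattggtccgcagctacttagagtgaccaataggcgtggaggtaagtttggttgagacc
BUB1 and NEK2 held no match in this window.

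Further cell cycle groups were read beside the mitotic genes. Of 29 tested genes of G1 and S phase, RRM2 alone was called, where 2.02% of all tested genes were called in either direction. RRM2, the small subunit of ribonucleotide reductase, had 47.9, 44.8 and 39.4 CPM at 120 min, against 103, 134 and 90.5 CPM at 30 min (log2 -1.32 ± 0.18, adjusted p = 0.003). GINS1, a subunit of the replicative helicase, had the highest change of this list, 1.02, at an adjusted p of 0.080, and the list's median was 0.03. Of 17 tested replication-dependent histone genes, 16 had a negative change, where 46.8% of all tested genes had a positive one. The list's median was -0.86, yet HIST1H2AG was the only one called, where 0.881% of all tested genes were called lower. With all reads as library sizes the median was -0.32. HIST1H2AG had 5.60, 7.26 and 10.5 CPM at 120 min, against 41.2, 35.5 and 9.05 CPM at 30 min. These groups overlapped, and its call remained in 1 of the 6 fits that left out a library.

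Among the rises that remained called in all 6 fits without a library were those of RBMS3, L3MBTL3, MAP3K1, BCL11A, NAPB and LINS1. RBMS3, an RNA-binding protein encoded by a very long gene (ENSG00000144642.21, chr3:28574791-30010391), was at 330, 251 and 342 CPM in the 30 min libraries, 729, 459 and 670 in those of 60 min, 1020, 851 and 934 in those of 90 min, and 740, 662 and 867 in those of 120 min. Its log2 change was 1.30 ± 0.17 for 120 against 30 min (adjusted p = 0.0023), and its highest mean was at 90 min. L3MBTL3, a reader of methylated lysines (ENSG00000198945.7, chr6:130013699-130141451), had 66.5, 50.3 and 66.8 CPM at 120 min, against 29.1, 16.5 and 19.6 CPM at 30 min. Its log2 change was 1.53 ± 0.24 (adjusted p = 0.0051), and the share of its reads that were converted averaged 16.5% at 120 min and 6.28% at 30 min.

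MAP3K1, a kinase upstream of JNK, had 37.1, 34.0 and 41.5 CPM at 120 min, against 19.9, 11.7 and 13.6 CPM at 30 min. BCL11A, a zinc finger repressor known from globin switching, had 63.3, 55.3 and 66.6 CPM at 120 min, against 24.9, 23.8 and 31.2 CPM at 30 min (log2 1.22 ± 0.15, adjusted p = 0.0012). NAPB, which takes SNARE complexes apart, and LINS1 averaged 48.8 ± 6.59 and 38.1 ± 4.41 CPM at 120 min, against 21.2 ± 4.66 and 15.2 ± 3.09 CPM at 30 min (SD, n = 3 each). For both, most of the change lay between 30 and 60 min (log2 1.02 and 1.05). BCL11A was the only one of the 12 largest rises that was also called in all reads (0.99, adjusted p = 0.023).

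The other large rises were TSHZ1 (1.47), SLC35G1 (1.29), ZNF71 (1.23), PANK1 (1.19) and ZSCAN32 (1.17) on the log2 scale. TSHZ1, ZNF71 and ZSCAN32 encode zinc finger proteins, PANK1 the first enzyme of coenzyme A synthesis, and SLC35G1 a membrane transporter-like protein. Their means ran from 15.8 to 39.9 CPM at 120 min and from 5.74 to 17.6 CPM at 30 min. Each lost its call without replicate 3 of 120 min. SLC35G1, ZNF71 and ZSCAN32 remained called in 2, 3 and 1 of the 6 fits, TSHZ1 in 4 and PANK1 in 5.

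Of 25 tested transcription factors of lineage and mesenchyme, 2 rose and 1 fell, beside 1.14% and 0.881% of all tested genes. The change was positive for 20 of the 25, beside 46.8% of all tested genes, with a median of 0.29. The summed level of the list, however, was 4437 to 4836 CPM at 120 min and 4785 to 5009 CPM at 30 min. RUNX2, the osteoblast factor, had 279, 249 and 348 CPM at 120 min, against 158, 150 and 175 CPM at 30 min (log2 0.86 ± 0.16, adjusted p = 0.012). GATA6 averaged 131 ± 15.6 CPM at 120 min and 81.5 ± 12.3 CPM at 30 min, with nearly all of the change in the first step (0.62). RUNX1, the related blood and epithelial factor, fell to 1391, 1629 and 1402 CPM at 120 min, against 1916, 2323 and 2344 CPM at 30 min (log2 -0.57 ± 0.12, adjusted p = 0.020). The 2 RUNX genes thus changed in opposite directions. RUNX2 lost its call without replicate 2 of 30 min or replicate 3 of 120 min, GATA6 without these or replicate 1 of 120 min, and RUNX1 without these 3 or replicate 3 of 30 min.

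Among matrix and adhesion genes, 18 of 24 tested were positive, 2 rose and none fell (median 0.12). Of all tested genes, 46.8% were positive, 1.14% rose and 0.881% fell. COL4A1, a chain of basement membrane collagen, averaged 722 ± 55.7 CPM at 120 min and 491 ± 37.0 CPM at 30 min. FBN1, the fibrillin of elastic microfibrils, averaged 2790 ± 342 CPM at 120 min and 1947 ± 110 CPM at 30 min. TGFB2, a TGF-beta ligand, averaged 775 ± 40.7 CPM at 120 min and 560 ± 9.20 CPM at 30 min, and was the only gene called of 17 in the TGF-beta list. ANKRD1, a cofactor gene driven by YAP, averaged 1520 ± 134 CPM at 120 min and 1053 ± 73.5 CPM at 30 min, and with TGFB2 made 2 of 22 called YAP and TEAD targets. DUSP4, a phosphatase that switches off ERK, averaged 92.5 ± 15.4 CPM at 120 min and 45.3 ± 6.71 CPM at 30 min, 1 of 15 in its list. All 5 lost their call without replicate 2 of 30 min or replicate 3 of 120 min, TGFB2 also without replicate 2 of 120 min, and FBN1 and ANKRD1 without any library other than replicate 1 of 30 min.

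Several lists held no called gene by edgeR. None of 23 tested immediate early factors was called (median -0.25). ATF3 had the lowest adjusted p of that list (-1.46, adjusted p = 0.065). None of 24 p53 targets (median -0.08), 22 stress genes (-0.18), 13 heat shock genes (-0.26), 18 cholesterol synthesis genes (0.21), 71 ribosomal protein genes (-0.25) or 16 genes of cohesin and its regulators (0.08) was called. NIPBL itself had 328, 285 and 351 CPM at 120 min, against 356, 241 and 248 CPM at 30 min, which overlapped (log2 0.20 ± 0.17, adjusted p = 0.57). All 12 tested mitochondrially encoded genes had a negative change (median -0.60) without a call, and 6 of them a positive one with all reads as library sizes. Of all tested genes, 46.8% had a positive change, and 87.7% did with all reads as library sizes. MAP2, a microtubule-associated protein best known in neurons and 1 of the neuron markers, fell to 77.7, 74.3 and 94.3 CPM at 120 min, against 227, 152 and 145 CPM at 30 min (log2 -1.08 ± 0.18, adjusted p = 0.0067).

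**Figure D3:**
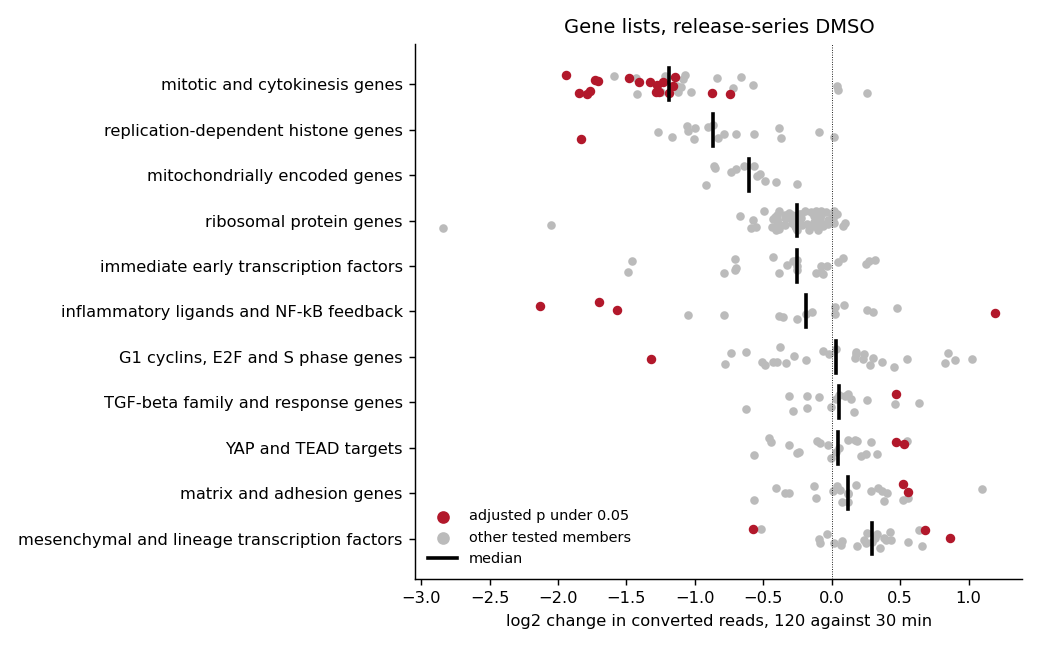
Log2 change in converted reads for 120 against 30 min (x axis) of each tested member of 11 gene lists (rows), with called genes in red, the others in grey and the median as a black bar. The medians are -1.19 for the mitotic list and -0.86 for histone genes, and lie between -0.60 and 0.29 for the other lists shown.

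By gene span, the shortest and the longest genes had the lowest medians. The median log2 change was -0.34 for 2429 genes under 10 kb, -0.04 for 10 to 30 kb, 0.08 for 30 to 100 kb, 0.06 for 100 to 300 kb and -0.25 for 826 genes over 300 kb. In single libraries of 120 min set against the mean of 30 min, on log2(CPM + 1), it was -0.17, -0.14 and -0.43 under 10 kb and -0.21, -0.25 and -0.18 over 300 kb. In all reads it was 0.02 under 10 kb and -0.36 over 300 kb. Of genes over 300 kb, 1.21% rose and 3.27% fell, beside 1.14% and 0.881% of all tested genes.

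Single steps between neighbouring times gave few calls. From 30 to 60 min, 1 gene rose and 1 fell (0.00779% each), against 1438 at an unadjusted p under 0.05 and 59 called by DESeq2. From 60 to 90 min no gene was called by edgeR or DESeq2, with 528 at an unadjusted p under 0.05. From 90 to 120 min edgeR called none and DESeq2 1, with 409 unadjusted. The test for a high or low in the middle times called none by edgeR, with 1380 at an unadjusted p under 0.05, so that the mean of RBMS3 at 90 min stands as a value only.

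The same genes were then read in other libraries of the same clone, outside the 12. Because the profiles were nearest to 4 and 6 h, the change from 4 to 6 h in mitosis-series DMSO (2 libraries each) was taken. This choice was made after the data were seen and rested on the same converted reads. Matching groups by likeness favours changes in the same direction, so the values from 4 to 6 h are not an independent test. Of the 146 genes higher at release 120 min, 133 (91.1%) were also higher at 6 h than at 4 h. Of the 113 lower genes, 111 (98.2%) were also lower. Among all 14570 genes tested there, 51.0% were higher and 49.0% lower, and 29 rises (0.199%) and 75 falls (0.515%) were called, 0.714% in all. Of the release genes, 7 were called higher and 37 called lower at 6 h, and none was called in the opposite direction.

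SLIT2 changed by -2.55 ± 0.14 (SE) from 4 to 6 h, CXCL8 by -2.17 ± 0.29, RBMS3 by 1.85 ± 0.22 and L3MBTL3 by 1.32 ± 0.18 on the log2 scale, all with an adjusted p of 0.0026 or lower. CENPE, BUB1, HMMR, CENPF, RRM2, MAP2, DUSP4 and RUNX2 were called in the same direction as well. Of the 37 genes, 4 had the opposite sign from 4 to 6 h, none of them called there: IL6 (-0.17, adjusted p = 0.85), COL4A1 (-0.11), FBN1 (-0.09) and TGFB2 (-0.09). From 30 to 120 min in the mitosis series these 4 genes were higher, by 3.28, 0.85, 0.22 and 0.30. Of 24 matrix and adhesion genes tested from 4 to 6 h, 17 were negative, 2 fell and none rose. From 30 to 120 min in the mitosis series, 18 of 24 were positive, 6 rose and none fell. Of all genes tested at those times, 54.5% were positive, 12.8% rose and 12.1% fell. Across 12724 genes tested in both, Pearson's r of the changes was 0.527 and Spearman's rho 0.490, where genes are not independent replicates. In 1 fit over 18 libraries, no gene of 14718 differed between the changes at an adjusted p under 0.05 by edgeR (671 at an unadjusted p under 0.05), which with 2 libraries at 4 and at 6 h does not show that the changes are equal.

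The mitosis series was also read at its own 30 and 120 min. Mitotic and cytokinesis genes were lower at 120 min there too, with 33 of 39 called lower, all 39 negative and a median of -1.36. Of the release genes tested there, 74 of 143 higher ones (51.7%) and 57 of 108 lower ones (52.8%) moved in the same direction, beside 54.5% of all genes higher and 45.5% lower. Without replicate 3 of mitosis 120 min these were 76 of 143 (53.1%) and 59 of 108 (54.6%), beside 47.2% of all genes higher and 52.8% lower. With all libraries of the mitosis series, called genes there were 12.8% higher and 12.1% lower, or 24.9% of all. Among them were 21 rises and 34 falls of the release series in the same direction, with 26 and 25 in the opposite one. Between release and mitosis series, 1239 genes had a more positive change (9.2%) and 1006 a more negative one (7.47%) of 13466 tested, 16.7% in all. With all reads as library sizes these counts were 1234 and 416. CDK1 differed by 4.54 ± 0.46, with a change of 0.04 in the release series and -4.50 in the mitosis series. DDIT4, an inhibitor of mTORC1 signalling, differed by -5.83 ± 1.11, with 0.04 in the release series and 5.86 in the mitosis series. SLIT2 had medians of 66.1 CPM at release 120 min and 318 at release 30 min, against 52.3 CPM at mitosis 120 min and 29.6 at mitosis 30 min. In the mitosis series its median was 353 CPM at 4 h, 61.8 at 6 h and 41.5 at 8 h.

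**Figure D4:**
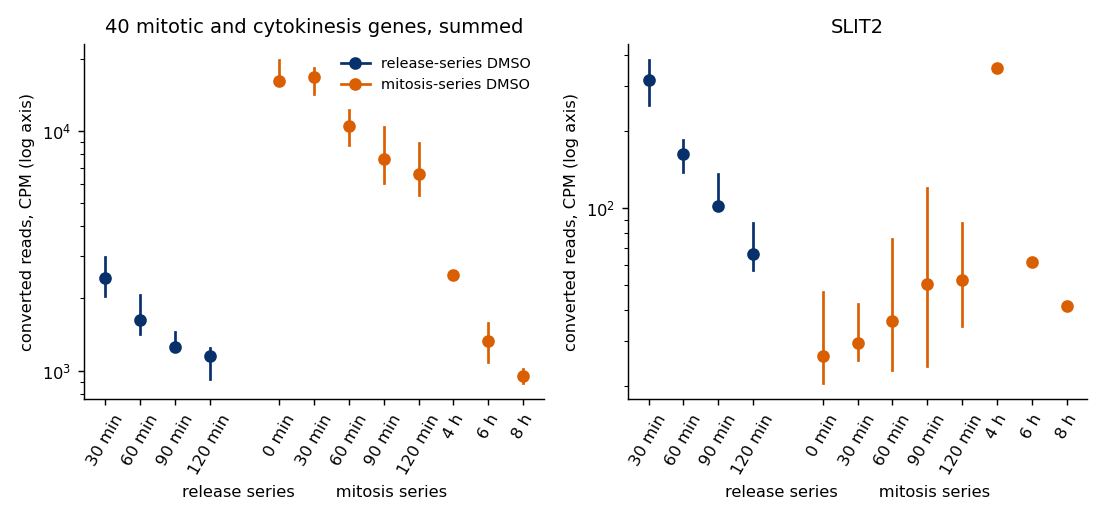
Converted reads in CPM (y axis, log scale) of the 40 mitotic and cytokinesis genes summed (left) and of SLIT2 (right) in each DMSO group, with points for medians and bars from lowest to highest library. The release groups run between 926 and 2974 CPM for the mitotic sum, near the 4 to 8 h groups of the mitosis series and below its groups of 0 to 120 min.

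**Figure D5:**
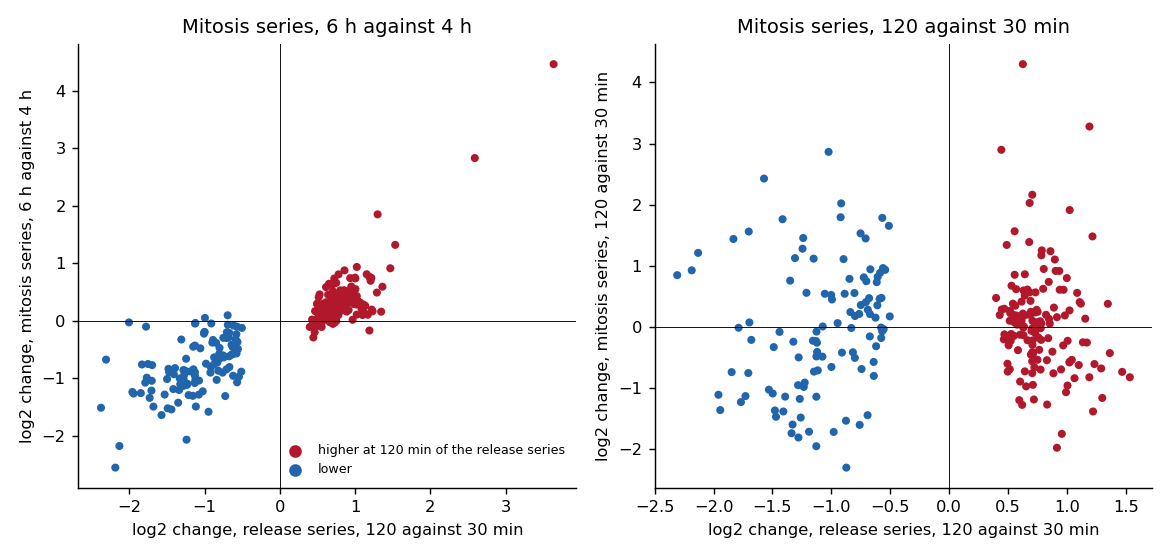
Log2 change of the genes called in release-series DMSO for 120 against 30 min (x axis) against their change in mitosis-series DMSO (y axes) from 4 to 6 h (left, 259 genes) and from 30 to 120 min (right, 251 genes). On the left 133 of 146 higher and 111 of 113 lower genes keep their direction, and on the right 74 of 143 and 57 of 108 do. The times on the left were chosen for likeness to the release profiles, which favours the same direction.

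With dTAGV-1 in place of DMSO in the same series, 40 genes differed in their change between 30 and 120 min, 1 more positive (0.00718%) and 39 more negative (0.28%) of 13927 tested, 0.287% in all. This count was 17 to 50 when each library was left out in turn and 2 with all reads as library sizes. Replicate 3 of 30 min with dTAGV-1 had the fewest reads of the study, 10.7 M with 0.419 M converted. Without that library 0 genes were more positive and 50 more negative. The 39 genes with a more negative change in the main fit included LPAR1, a receptor for lysophosphatidic acid. Its change was -2.25 with dTAGV-1 and 0.22 with DMSO, a difference of -2.47 ± 0.18 (adjusted p = 8.8e-09). SNAI2, a repressor of epithelial genes, changed by -1.59 with dTAGV-1 and 0.66 with DMSO, and ITGA11, a collagen-binding integrin, by -1.39 with dTAGV-1 and 0.76 with DMSO. IL6 changed by -0.64 with dTAGV-1 and 1.22 with DMSO (difference -1.85 ± 0.36, adjusted p = 0.016). ZSWIM6 was the gene with the more positive change, 0.97 with dTAGV-1 and -0.13 with DMSO. For the genes with the firmest changes no difference between the arms was called. SLIT2 changed by -2.38 with dTAGV-1 and -2.17 with DMSO, a difference of -0.21 ± 0.30 (SE), and RBMS3 by 1.51 with dTAGV-1 and 1.32 with DMSO, a difference of 0.19 ± 0.24.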

How the data were processed

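The deposited tables hold, per gene and library, counts of all reads and of reads with T-to-C conversions, and the numbers of covered and converted T, per the file headers. A deposited conversion rate, a fraction of converted over covered T, was made by the authors from those numbers, per the file headers, and was not used for any value here. The submitters' processing notes name hg38, HISAT, Picard and HTSeq; versions, order and the rule for calling a read converted are not given in the sources used here. Of 49186 genes, 281 were left out and 48905 kept. Starts were raised by 1 to be 1-based.

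Converted read counts of the 12 libraries were fitted with edgeR 4.0.16 (filterByExpr with a minimum count of 10, TMM, robust quasi-likelihood F test, R 4.3.3), with Benjamini-Hochberg adjustment over 12831 genes and a threshold of 0.05. Every adjusted p for genes is from edgeR's quasi-likelihood test. The fit across series and arms added the libraries of those groups. DESeq2 1.42.0 was an alternative. The standard error is the log2 change over the root of F. The scripts were tested on simulated data. The fit has no replicate block. Same-numbered libraries deviated together (all 3 correlations over 0.1) between 90 and 60 min only, of 6 pairs of times; nothing in the labels says what a number shares.

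The members and lists were chosen with earlier results of these data known. Named genes were the 12 largest called rises and 12 largest falls with non-overlapping libraries, a mean log2 CPM of at least 3 and no clone name, up to 3 called genes each way of each of 28 lists, up to 4 called genes each way of the differences between series and between arms, and NIPBL. Genes outside this rule are given as members of a list or as a check of the labels.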

Additional observations from a re-analysis of the deposited data

Results flagged for a closer look

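The change between 120 and 30 min differed between the release and mitosis series for 2245 genes (edgeR's quasi-likelihood test of the difference). Positive differences on the log2 scale included those of CDK1 (4.54), TICRR, a factor of replication origin firing (3.59), ARHGAP11B (3.57) and ZNF100 (3.45), which were lower at 120 min in the mitosis series. Negative ones included those of CHAC1, a glutathione-degrading stress gene (-6.80), DDIT4 (-5.83) and the linker histone genes HIST1H1E (-4.78) and HIST1H1C (-4.36), which were higher at 120 min in the mitosis series. The profiles at equal label times differed between the 2 series, and the part of that in these differences was not tested.

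Between dTAGV-1 and DMSO in the release series the change differed for 40 genes. The differences were -2.47 for LPAR1, -2.25 for SNAI2, -2.17 for SAMD3, -2.15 for ITGA11 and 1.10 for ZSWIM6.

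The groups of 4 mitosis-series DMSO libraries (60, 90 and 120 min) were each searched for a library apart from the others. The search covered 4 measures of libraries and 4 levels of genes or lists. A library lay apart in 3 cases, each in another group. These were the share of converted reads taken by the 10 leading genes at 120 min (13.5%), CDK1 at 90 min (13.8 CPM) and RBMS3 at 60 min (87.2 CPM). Chance alone gives such a gap in about 1 of 20 groups.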

How the results depend on the processing

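The count of genes called for 120 against 30 min (259) was 700 with no filter on low counts, 755 with the replicate block, 433 with the DESeq2 test, 47 in all reads, 4386 with all reads as library sizes, 5973 relative to all reads of each gene, 134 in a fit of the 6 libraries alone, 90 when changes under 1 on the log2 scale were left out, and 36 to 396 without single libraries. Same-numbered libraries of 120 and 30 min correlated at 0.0764, 0.297 and -0.183, and those of 90 and 60 min at 0.169, 0.620 and 0.387. The numbers are thus not shown to pair the compared libraries, except between 90 and 60 min, where the replicate block gave 0 calls as well. For 60 against 30 min (2) the count was 73 with no filter, 64 with the replicate block, 59 with DESeq2, 0 in all reads and 0 with all reads as library sizes, and 0 to 5 without single libraries. It was 5 with no filter for 90 against 60 min. For 120 against 90 min it was 2 with no filter, 1 with DESeq2 and 0 to 1 without single libraries. For a high or low in the middle it was 46 with no filter, 26 with the replicate block and 0 to 1 without single libraries. The count for dTAGV-1 minus DMSO (40) was 100 with the replicate block, 2 with all reads as library sizes and 17 to 50 without single libraries. Release minus 6 against 4 h (0) gave 12 with the replicate block and 0 to 1 without single libraries. Release minus mitosis series (1239 more positive, 1006 more negative) gave 1573 and 1420 with the replicate block, 1234 and 416 with all reads as library sizes, and in all stayed between 1644 and 2465 without single libraries. The ratio of converted shares stayed between 1.39 and 1.55.

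Relative to all reads of each gene, where the median gene changed by 0.54, 11 falls turned positive: CXCL8 0.31, CASC5 0.20, CENPE 0.34, HMMR 0.084, CENPF 0.093, BUB1 0.11, NEK2 0.19, KIF4B 0.037, BIRC3 0.020, IL11 0.40 and RUNX1 0.47. Genes under 10 kb had a median of 0.017 in all reads and 0.21 relative to all reads, and genes over 300 kb -0.36 in all reads and 0.61 relative to all reads. The cause of these changes was not tested. Of 570 values for named genes under other settings, 422 kept direction and side of the threshold. With 3 libraries a time, adjusted p-values of single steps are limited by the spread between libraries.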

Other observations

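The following called genes lie outside the lists and were chosen after their values were seen. LEF1, a transcription factor of the Wnt pathway, rose by 1.16 ± 0.23 on the log2 scale (SE), WNT5A, a Wnt ligand, by 0.61 ± 0.14, and HHIP, which binds hedgehog ligands, by 0.78 ± 0.16. Their changes in the mitosis series from 4 to 6 h were 0.81, 0.59 and 0.10. Among the falls were RELN, an extracellular protein of neuronal migration (-1.34 ± 0.19), the cadherin family genes PCDH7 (-1.21 ± 0.24) and CDH18 (-1.07 ± 0.26), and NR3C2, the mineralocorticoid receptor (-1.15 ± 0.14). Their changes from 4 to 6 h were -1.20, -1.29, -1.04 and -0.45.

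The largest rises of all belonged to transcripts with clone names only, which the naming rule leaves out. CTD-3012A18.1 changed by 3.64 and RP11-460B17.2 by 2.59 on the log2 scale, and from 4 to 6 h in the mitosis series by 4.46 and 2.83. Neither was among the genes tested from 30 to 120 min in the mitosis series. Their levels are not given here, so how far these changes rest on few reads is not shown.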
